A study of Homo sapiens with 6 samples.

Results

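Expression of 10 genes of lipid transport was described in A673/TR/shEF cells, out of 26364 gene symbols with values. They comprise the apolipoproteins APOE, APOC1, APOD, APOB and APOL1, clusterin (CLU, also called apolipoprotein J) and its relative CLUL1, the lipid exporters ABCA1 and ABCG1, and lipoprotein lipase (LPL). The genes were chosen by name, with their FPKM difference between the groups below already known. That difference is therefore given for them as a description, without a test. All 10 symbols had a row, and 9 passed the filter on low values (a mean of at least 0.5 FPKM over the 6 libraries), whereas APOB did not.

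A673 is an Ewing sarcoma cell line driven by the fusion transcription factor EWSR1::FLI1. Its derivative A673/TR/shEF carries a tetracycline repressor and an shRNA against the fusion mRNA that doxycycline switches on. RNAseq was performed on 3 untreated samples (EWSR1::FLI1 high) and on 3 samples treated for 72 h with doxycycline at 1 µg/mL (EWSR1::FLI1 low), and samples of both groups grew in medium with blasticidin and zeocin. The submitters describe the samples of a group as clones, while the titles number them as experiments, so p-values measure only the spread between these samples. No doxycycline-treated cells without the shRNA were analysed here, and the effects of the drug and of the knockdown cannot be told apart.

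Lipids travel between cells in lipoproteins, particles whose surface is built by apolipoproteins. ABCA1 and ABCG1 pass cellular cholesterol and phospholipid to apolipoproteins outside the cell, LPL releases fatty acids from circulating triglyceride, and cell surface receptors take up the particles. In many cell types the sterol-sensing nuclear receptors LXR raise transcription of ABCA1, ABCG1, APOE and LPL.

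Reads on genes, recovered from the deposited values, numbered 7800264 to 10264638 per EWSR1::FLI1 high library and 6980361 to 16658933 per EWSR1::FLI1 low library. FLI1, the 3′ part of the fusion, was at 11.3, 12.7 and 14.2 FPKM in untreated cells (here and below, 3 values follow replicates 1, 2 and 3) and at 2.91, 4.29 and 3.68 FPKM in doxycycline-treated cells (log2 fold change -1.57, adjusted p = 0.000676, limma). EWSR1, whose intact allele is also transcribed, differed by -0.50 on the same scale (adjusted p = 0.159, limma). Ewing sarcoma markers were present: over the libraries of both groups, NR0B1, NKX2-2 and CD99 were at 1.84 to 33.8, 1.29 to 5.77 and 84.2 to 144 FPKM. Their list of 7 genes, which also holds STEAP1, LIPI, FLI1 and EWSR1, summed to 613 to 638 FPKM in EWSR1::FLI1 high and to 229 to 258 FPKM in treated libraries. All 7 were lower without overlap of the groups, beside 23.6% of all tested genes, and limma called 5 lower, beside 3.37%. Among genes that mark other cells, the 7 macrophage genes summed to 7.67 to 10.1 and 7.56 to 21.5 FPKM, most of it CD68, while PTPRC and CD163 stayed at or below 0.667 and 0.51 FPKM. The 5 adipocyte genes summed to 1.02 to 1.31 and 2.35 to 3.79 FPKM, with ADIPOQ at most 0.342, and the 5 hepatocyte genes to 1.05 to 1.80 and 1.66 to 4.11 FPKM, with ALB at most 0.35. The part of these low levels in the results below was not tested, and in bulk RNA a change in the number of cells of a type and in RNA per cell cannot be told apart.

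In the GENCODE annotation of GRCh37, CLU (ENSG00000120885, chromosome 8, 27454434 to 27472217, minus strand) and LPL (ENSG00000175445, chromosome 8, 19759228 to 19824770, plus strand) share a chromosome without being neighbours. APOL1 (ENSG00000100342) lies on chromosome 22 from 36649117 to 36663576, APOD (ENSG00000189058) on chromosome 3 from 195295576 to 195310904, and APOB (ENSG00000084674) on chromosome 2 from 21224301 to 21266945. ABCG1 (ENSG00000160179) extends from 43619799 to 43717354 on chromosome 21.

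Of the 9 genes tested, 8 had a higher mean in the EWSR1::FLI1 low group and 1, CLUL1, a lower one. In the limma fit over 15504 genes, 4.51% of all tested genes were called higher and 3.37% lower at an adjusted p under 0.01. All libraries of EWSR1::FLI1 low lay above all of EWSR1::FLI1 high for 6 members, as for 17.5% of tested genes, and below them for 1, as for 23.6%. These counts restate the choice of the genes. APOD and APOL1 passed the filter on low values only through the EWSR1::FLI1 low group, which fixed their direction. Their means in EWSR1::FLI1 high were 0.310 and 0.263 FPKM, and both are among the 6 members without overlap. The median log2 fold change of the 9 was 1.08, and that of all tested genes -0.05. Fold changes were computed on log2(FPKM + 1) and so come out too small for weakly expressed genes.

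**Figure D1:**
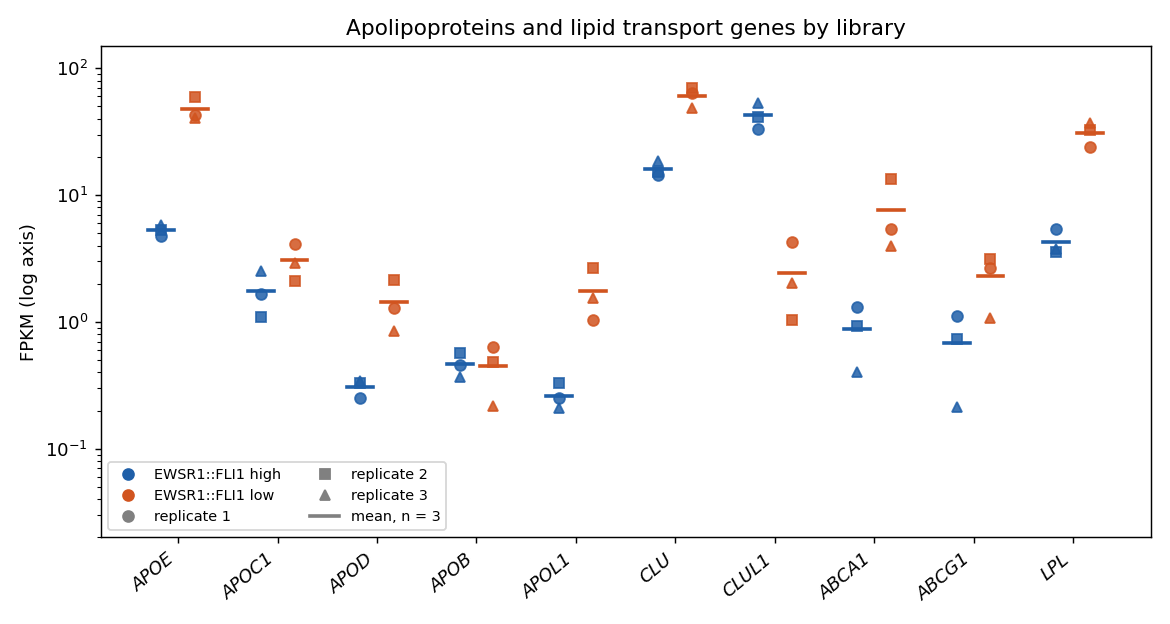
FPKM (log axis) of the 10 genes in each library, EWSR1::FLI1 high in blue and EWSR1::FLI1 low in orange, with 1 symbol per replicate and a bar for the mean of 3. CLUL1 is the only member whose EWSR1::FLI1 low libraries all lie below the EWSR1::FLI1 high ones, and for APOC1, APOB and ABCG1 the groups overlap.

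APOE, the ligand that brings remnant particles to lipoprotein receptors, had the largest increase of the 10 genes. Its expression was 4.76, 5.33 and 5.84 FPKM in untreated cells and 43.1, 59.5 and 40.8 FPKM in doxycycline-treated cells. The lowest EWSR1::FLI1 low library was thus far above the highest EWSR1::FLI1 high library, and the spread within each group was small next to the distance between them. The means were 5.31 ± 0.536 and 47.8 ± 10.2 FPKM (SD, n = 3), a ratio of 9.01. The log2 fold change was 2.94 (standard error 0.20), the 86th highest of the genes tested, and it stayed between 2.77 and 3.04 when 1 library at a time was left out. APOE was read 62 to 73 times per EWSR1::FLI1 high library and 560 to 928 times per EWSR1::FLI1 low library.

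APOC1, a small apolipoprotein that inhibits lipoprotein lipase and particle uptake, is the next gene downstream of APOE. APOE (ENSG00000130203) occupies 45409048 to 45412650 and APOC1 (ENSG00000130208) 45417504 to 45422606 on the plus strand of chromosome 19 (GRCh37), which leaves 4853 bases between them. APOC1 was expressed at 1.65, 1.09 and 2.52 FPKM in untreated cells and at 4.15, 2.12 and 2.92 FPKM in doxycycline-treated cells. The groups overlapped, since EWSR1::FLI1 low replicate 2 was below EWSR1::FLI1 high replicate 3. With 4 to 21 reads per library and a floor of 3 reads at 0.418 to 0.84 FPKM, the ratio of the means of 1.75 and the log2 fold change of 0.56 (standard error 0.25) rest on few reads. APOC1P1, a pseudogene copy with 0 to 5 reads per library, could exchange reads with it.

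Genes around this locus were listed as well. Of 7 listed neighbours (BCAM, NECTIN2, TOMM40, APOC4, APOC2, CLPTM1 and RELB), 4 could be tested and none was called by limma; 0 had an unadjusted p under 0.05, beside 34.3% of all tested genes, and 0 were called by limma-voom on recovered reads, beside 15.4%. TOMM40, a mitochondrial import channel upstream of APOE and the neighbour with the highest level, was at 44.2, 43.7 and 61.0 FPKM in untreated cells and at 20.7, 42.0 and 44.7 FPKM in doxycycline-treated cells. Its groups overlapped (log2 fold change -0.52, adjusted p = 0.262, limma). The difference between the changes of APOE and of its neighbours was not tested.

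RefSeq promoter windows (250 bases before to 50 after an annotated start, GRCh38.p14) were examined for 4 of the 10 genes, APOE, APOC1, ABCA1 and CLUL1. Windows of the other members are not reported here, so nothing is said about their motifs. The windows of APOE, the member with the largest increase, held none of 3 motifs searched on both strands: an LXR-type direct repeat of AGGTCA with 4 bases between (at most 1 mismatch in each copy), a GGAA pair (GGAAGGAA), the repeat unit EWSR1::FLI1 is known to bind, and a TATA box (TATAAA). These were found in 1.38%, 3.67% and 11.5% of 35116 windows. A match or its lack describes only these letters in this window. The window of the most upstream APOE start is printed without capitals for comparison with that of ABCA1 further on.
APOE chr19:44905546-44905845, plus strand: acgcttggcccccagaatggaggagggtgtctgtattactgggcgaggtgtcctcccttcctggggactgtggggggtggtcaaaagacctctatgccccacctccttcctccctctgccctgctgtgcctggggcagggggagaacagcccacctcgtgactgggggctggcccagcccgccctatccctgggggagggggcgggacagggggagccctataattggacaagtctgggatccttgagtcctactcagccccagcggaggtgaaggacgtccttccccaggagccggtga

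CLU is a secreted chaperone found on high-density lipoproteins. It was expressed at 14.4, 15.2 and 18.6 FPKM in untreated cells and at 63.4, 69.5 and 48.2 FPKM in doxycycline-treated cells. Every EWSR1::FLI1 low library was above every EWSR1::FLI1 high library, and the means were 16.1 ± 2.26 and 60.4 ± 10.98 FPKM (SD, n = 3). The ratio was 3.75 and the log2 fold change 1.84 (standard error 0.21), from 1.73 to 1.99 when 1 library at a time was left out. With at least 400 reads in each library, CLU was among the best measured of the 10 genes.

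CLUL1, a clusterin-like gene known mainly from the retina, showed the opposite pattern. It was at 33.2, 41.2 and 53.5 FPKM in untreated cells and at 4.27, 1.03 and 2.03 FPKM in doxycycline-treated cells. The reads behind them numbered 782, 736 and 929 in the untreated and 85, 19 and 71 in the treated libraries. The mean of 42.7 ± 10.2 FPKM (SD, n = 3) in the untreated group was 17.5 times that in the treated group (2.44 ± 1.65 FPKM), although CLUL1 was detected in all libraries. Its log2 fold change of -3.75 (standard error 0.33) was the third lowest of all genes tested and stayed between -4.11 and -3.42 when 1 library at a time was left out. EWSR1::FLI1 low replicate 2 was lowest for CLUL1 and highest for CLU and APOE. CLUL1 (ENSG00000079101, 596988 to 650334, plus strand of chromosome 18, GRCh37) overlaps the antisense gene TYMSOS. That gene was at 4.85, 4.76 and 7.34 FPKM in untreated cells and at 1.47, 1.73 and 2.81 FPKM in doxycycline-treated cells, and whether counting used strand is not given in the sources used here. Most like CLUL1 over the 6 libraries on the log2(FPKM + 1) scale were FEZF1-AS1, ATAD2B and SYNPR (Pearson's r of 0.999, 0.999 and 0.998). Most like APOE were CEBPD, EPAS1 and PAMR1 (Pearson's r of 0.999, 0.999 and 0.998). These values describe 6 libraries that fall into 2 groups, so any gene that separates the groups scores high.

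Of the CLUL1 starts in RefSeq, the window of the upstream start has 78.7% G and C and is built of a tandem repeat, while that of the downstream start has 37%. Neither held any of the 3 motifs. The upstream window is shown because of this repeat, with the 8 exact copies of a run of 12 bases within the repeat in capitals. The FPKM values do not tell which start was used.
CLUL1 chr18:596738-597037, plus strand: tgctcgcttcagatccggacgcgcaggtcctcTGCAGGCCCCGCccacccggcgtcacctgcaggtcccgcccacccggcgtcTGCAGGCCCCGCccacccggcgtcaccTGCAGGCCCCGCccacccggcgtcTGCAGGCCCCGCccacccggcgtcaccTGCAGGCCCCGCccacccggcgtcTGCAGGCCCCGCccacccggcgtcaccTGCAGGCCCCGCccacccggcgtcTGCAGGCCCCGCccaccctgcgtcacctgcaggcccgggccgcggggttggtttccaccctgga

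APOD, APOL1 and APOB were the least expressed members. APOD, a lipocalin that carries small hydrophobic molecules, had 3 reads in each EWSR1::FLI1 high library, which is the floor of detection, and 13, 20 and 15 reads in doxycycline-treated cells. Its FPKM values were 0.253, 0.333 and 0.343 in EWSR1::FLI1 high and 1.29, 2.16 and 0.852 in doxycycline-treated cells. The groups did not overlap. The ratio of its normalized reads, 48 against 9 in all, was 4.28 (95% exact interval 2.08 to 9.92, counting error only). Its log2 fold change was 0.86 (standard error 0.21), or 1.82 with a pseudocount of 0.1.

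APOL1, an apolipoprotein of high-density lipoproteins known for lysing trypanosomes, was at 0.249, 0.328 and 0.211 FPKM in untreated cells. In doxycycline-treated cells it was at 1.03, 2.67 and 1.53 FPKM, above all EWSR1::FLI1 high libraries, with 5 to 8 reads against 28 to 73. Its log2 fold change of 1.08 (standard error 0.23) became 2.26 with a pseudocount of 0.1 in place of 1. APOB, the structural protein of low-density lipoproteins, was at 0.459, 0.569 and 0.366 FPKM in untreated cells and at 0.637, 0.484 and 0.218 FPKM in doxycycline-treated cells. The groups overlapped, the doxycycline-treated libraries reaching past the untreated ones at both ends, with 40 to 80 reads per library, and the ratio of the means was 0.961.

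Most other apolipoproteins were below the filter on low values. Of 19 listed (such as APOA1, APOA2, APOC2, APOC3, APOM, APOL2 to APOL6 and the SAA genes), 5 passed the filter, and none was called by limma or by limma-voom. A log2 fold change above 0 was found for 5 of them, beside 45.2% of all tested genes, and an unadjusted p under 0.05 for 1, beside 34.3%. APOA1, at 0 to 0.106 FPKM in EWSR1::FLI1 high, passed the filter only through the EWSR1::FLI1 low group, which fixed its direction. The others were APOL2, APOL3, APOL4 and APOL6, all on chromosome 22. Over all 5 tested genes, APOA1 included, the median log2 fold change was 0.73, and 0.80 and 0.64 with median-ratio and quantile scaling. APOL2, the most abundant of them, was at 17.5, 18.5 and 22.8 FPKM in untreated cells and at 15.4, 29.6 and 30.8 FPKM in doxycycline-treated cells, and the groups overlapped (log2 fold change 0.30, adjusted p = 0.488, limma).

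ABCA1, which loads cholesterol and phospholipid onto lipid-poor apolipoproteins, was at 1.32, 0.932 and 0.406 FPKM in untreated cells. In doxycycline-treated cells it was at 5.38, 13.5 and 3.97 FPKM, so all EWSR1::FLI1 low libraries were above all EWSR1::FLI1 high libraries, with a wide spread in each group. The means were 0.884 ± 0.457 and 7.62 ± 5.15 FPKM (SD, n = 3), a ratio of 8.62. Its log2 fold change of 2.06 (standard error 0.37) fell to 1.61 without EWSR1::FLI1 low replicate 2 and was 2.89 with a pseudocount of 0.1.

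ABCG1, which moves cholesterol to mature high-density particles, was at 1.11, 0.731 and 0.215 FPKM in untreated cells and at 2.65, 3.15 and 1.07 FPKM in doxycycline-treated cells. The groups touched, as EWSR1::FLI1 low replicate 3 lay just under EWSR1::FLI1 high replicate 1. The ratio of the means was 3.34 and the log2 fold change 0.94 (standard error 0.30), or 1.68 with a pseudocount of 0.1. ABCA1 and ABCG1 ordered the libraries of each group alike. In EWSR1::FLI1 high the order was replicate 1, then 2, then 3 from highest to lowest. In EWSR1::FLI1 low it was replicate 2, then 1, then 3, an order that APOE, CLU and APOD shared. Within EWSR1::FLI1 high, the coefficients of variation of ABCA1 and ABCG1, 51.7% and 65.6%, were the highest of the 10 genes, compared with 10.1% for APOE. ABCG1 had only 42, 21 and 6 reads in these libraries, and APOE 62 to 73. The part of counting error in this spread was not tested.

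The ABCA1 gene (ENSG00000165029) occupies 107543287 to 107690436 on the minus strand of chromosome 9 (GRCh37). Its RefSeq promoter window is shown because it was the only examined member window with any of the motifs. The window held the LXR-type repeat from 69 to 54 bases before the start, on the opposite strand and with 1 mismatch in each copy. A TATA box followed from 31 to 26 bases before the start. Both are in capitals.
ABCA1 chr9:104928106-104928405, minus strand (GRCh38.p14): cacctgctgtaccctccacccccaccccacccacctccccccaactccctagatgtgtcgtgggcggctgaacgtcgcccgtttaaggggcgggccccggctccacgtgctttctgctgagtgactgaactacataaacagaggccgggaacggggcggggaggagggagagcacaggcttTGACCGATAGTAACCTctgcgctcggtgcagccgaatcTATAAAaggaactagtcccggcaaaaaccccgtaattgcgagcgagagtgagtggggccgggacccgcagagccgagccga

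Of 20 other ABC transporters of lipids and related molecules, 12 were tested. Limma called 1 higher and 1 lower, beside 4.51% and 3.37% of all tested genes. An unadjusted p (limma) under 0.05 was found for 6, beside 34.3%. The median log2 fold change was 0.39 (0.46 and 0.30 with median-ratio and quantile scaling). ABCA4, the retinoid lipid flippase of photoreceptors, rose from 0.338, 0.274 and 0.30 FPKM in untreated cells to 3.41, 4.19 and 5.60 FPKM in doxycycline-treated cells (log2 fold change 2.03, adjusted p = 0.000226, limma). It is the gene called higher, and it passed the filter on low values only through the EWSR1::FLI1 low group, which fixed its direction. ABCA13 fell from 2.06 ± 0.232 to 0.545 ± 0.175 FPKM (SD, n = 3; log2 fold change -0.99, adjusted p = 0.00419, limma). ABCA13 lost this call in each fit that left out 1 library except EWSR1::FLI1 low replicate 1 (adjusted p up to 0.0266, limma). ABCD3, a peroxisomal transporter and the most abundant of the list, had overlapping groups at 48.5 to 53.0 and 38.9 to 56.6 FPKM (adjusted p = 0.56, limma).

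LXR and its wider target genes were examined because ABCA1, ABCG1, APOE and LPL are among the known targets of LXR. Of 22 listed LXR, RXR and PPAR receptors, corepressors and target genes outside the 10, 18 were tested and none was called by limma, with 8 at an unadjusted p under 0.05, beside 34.3% of all tested genes. Limma-voom on recovered reads called 2, beside 15.4%. The median log2 fold change was 0.26 (0.35 and 0.34 with median-ratio and quantile scaling). Of the 18 tested genes, 7 were higher without overlap of the groups, beside 17.5% of all tested genes, and 2 were lower without overlap, beside 23.6%. NR1H3 (LXR alpha) was at 2.88, 2.60 and 2.79 FPKM in untreated cells and at 5.73, 3.05 and 4.57 FPKM in doxycycline-treated cells (adjusted p = 0.115, limma). Its groups did not overlap. NR1H2 (LXR beta), at 13.4 to 15.9 FPKM in EWSR1::FLI1 high and 12.1 to 25.1 FPKM in treated libraries, had overlapping groups (adjusted p = 0.382, limma). SREBF1, an established LXR target, had overlapping groups and a log2 fold change near 0 (-0.03, adjusted p = 0.939, limma). SCD, the fatty acid desaturase and the most abundant gene of the list, was at 111, 58.3 and 59.1 FPKM in untreated cells and at 120, 90.7 and 73.5 FPKM in doxycycline-treated cells (adjusted p = 0.433, limma). NR1H2, NR1H3 and SREBF1 were picked for the text after their values were seen.

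LPL, which splits the triglycerides of lipoproteins at the cell surface, was the member with the third highest level in EWSR1::FLI1 low cells. Its level was 5.37, 3.58 and 3.76 FPKM in untreated cells and 23.9, 32.4 and 36.8 FPKM in doxycycline-treated cells. No EWSR1::FLI1 low library came near the EWSR1::FLI1 high range. The means were 4.23 ± 0.983 and 31.0 ± 6.54 FPKM (SD, n = 3), a ratio of 7.33, and the log2 fold change was 2.61 (standard error 0.22), between 2.48 and 2.78 when 1 library at a time was left out.

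The other lipases moved in both directions. Of 20 listed lipases and regulators of LPL, 16 were tested. Limma called 2 higher and 1 lower, beside 4.51% and 3.37% of all tested genes. An unadjusted p (limma) under 0.05 was found for 5, beside 34.3%. The median log2 fold change was 0.27 (0.32 and 0.11 with median-ratio and quantile scaling). LIPI, a membrane-associated phospholipase known as an Ewing sarcoma transcript, had by far the highest level of the lipases, at 204, 202 and 194 FPKM in untreated cells. It fell to 51.6, 21.7 and 41.2 FPKM in doxycycline-treated cells (log2 fold change -2.44, standard error 0.29, adjusted p = 0.000767, limma), and kept this call in all 14 alternatives. LPL and LIPI therefore differed by a factor of 47.2 in mean FPKM in EWSR1::FLI1 high cells and of 1.23 in EWSR1::FLI1 low cells.

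MGLL, the monoacylglycerol lipase, rose from 0.159, 0.261 and 0.376 FPKM in untreated cells to 2.01, 11.1 and 8.90 FPKM in doxycycline-treated cells (log2 fold change 2.496, adjusted p = 0.0059, limma). LIPA, which cleaves cholesteryl esters and triglycerides in lysosomes, rose from 13.8 ± 3.28 to 36.9 ± 9.10 FPKM (SD, n = 3; log2 fold change 1.35, adjusted p = 0.00608, limma). The calls of MGLL and LIPA were lost in each fit that left out 1 library other than EWSR1::FLI1 low replicate 1, with an adjusted p (limma) up to 0.0298 and 0.0407. LIPG, the endothelial lipase, was at 0.251, 0.211 and 0.217 FPKM in untreated cells and at 1.13, 6.67 and 3.19 FPKM in doxycycline-treated cells, and did not pass the limit (log2 fold change 1.74, adjusted p = 0.0154, limma), although it passed in 4 of 14 alternatives, among them the fit without EWSR1::FLI1 low replicate 1 (0.000855), limma-voom (0.00966) and the replicate block (0.00663). LIPG was picked for the text after its values were seen. Both MGLL and LIPG passed the filter on low values only through the EWSR1::FLI1 low group, which fixed their direction.

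**Figure D2:**
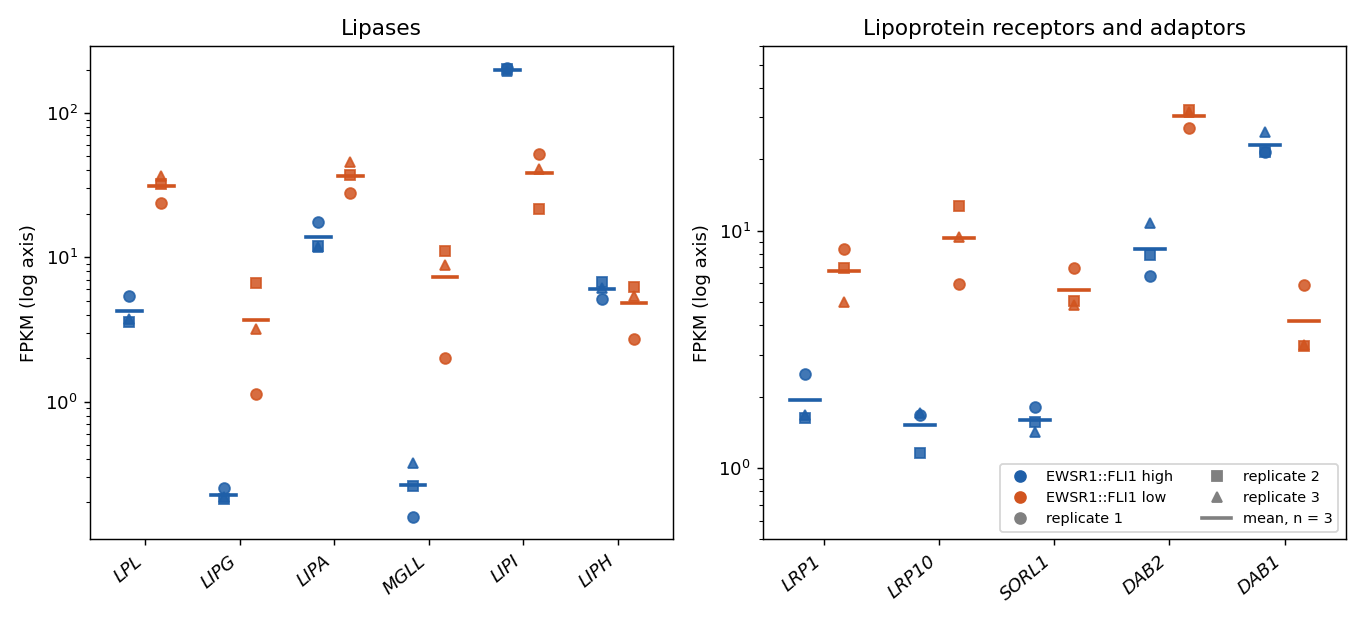
FPKM (log axis) of 6 lipases (left) and of 5 lipoprotein receptors and adaptors (right) in each library, EWSR1::FLI1 high in blue and EWSR1::FLI1 low in orange, with 1 symbol per replicate and a bar for the mean of 3. LIPI and DAB1 are lower in all EWSR1::FLI1 low libraries, LIPH overlaps between the groups, and the other genes shown are higher in all EWSR1::FLI1 low libraries.

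Receptors that bind APOE and take up lipoproteins were examined next. Of 28 listed receptors, adaptors and regulators, 24 were tested. Limma called 4 higher and 1 lower, beside 4.51% and 3.37% of all tested genes. An unadjusted p (limma) under 0.05 was found for 13, beside 34.3%. The median log2 fold change was 0.24 (0.30 and 0.20 with median-ratio and quantile scaling). LRP10, a lipoprotein receptor relative that sorts cargo, rose from 1.67, 1.16 and 1.71 FPKM in untreated cells to 5.95, 12.7 and 9.36 FPKM in doxycycline-treated cells (log2 fold change 1.99, adjusted p = 0.000998, limma). LRP1, the large endocytic receptor of APOE-rich remnants, rose from 1.93 ± 0.492 to 6.78 ± 1.69 FPKM (SD, n = 3; log2 fold change 1.40, adjusted p = 0.00264, limma). SORL1, which sorts cargo between endosomes and the Golgi, rose from 1.59 ± 0.199 to 5.64 ± 1.17 FPKM (SD, n = 3; log2 fold change 1.34, adjusted p = 0.00128, limma). The adjusted p (limma) of LRP1 was 0.0203 and that of SORL1 0.0114 without EWSR1::FLI1 high replicate 2, and 0.018 and 0.0103 without EWSR1::FLI1 high replicate 3. That of LRP1 was 0.0121 after quantile normalization.

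The adaptors DAB2 and DAB1, relatives that bind the cytoplasmic tails of these receptors, changed in opposite directions. DAB2, which serves endocytosis, rose from 6.42, 7.91 and 10.7 FPKM in untreated cells to 27.2, 32.1 and 31.7 FPKM in doxycycline-treated cells (log2 fold change 1.76, adjusted p = 0.000785, limma). DAB1, which relays reelin signals from VLDLR and LRP8, fell from 21.5, 21.5 and 26.1 FPKM in untreated cells to 5.88, 3.26 and 3.31 FPKM in doxycycline-treated cells (log2 fold change -2.26, adjusted p = 0.000352, limma). In neither gene did the groups overlap. LRP6, a Wnt co-receptor and the most abundant gene of the list, was at 42.2 to 51.2 FPKM in untreated cells and at 28.6 to 37.02 FPKM in treated libraries (log2 fold change -0.52, adjusted p = 0.0793, limma).

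Inside the cell, 21 of 30 listed carriers of cholesterol and fatty acids were tested. Limma called 2 higher and 1 lower, beside 4.51% and 3.37% of all tested genes. An unadjusted p (limma) under 0.05 was found for 12, beside 34.3%. The median log2 fold change was 0.39 (0.47 and 0.37 with median-ratio and quantile scaling). FABP3, a fatty acid binding protein of muscle, rose from 0.695, 0.801 and 0.706 FPKM in untreated cells to 7.69, 7.22 and 4.04 FPKM in doxycycline-treated cells (log2 fold change 2.04, adjusted p = 0.00049, limma). NPC2, which carries cholesterol out of lysosomes, rose from 31.3 ± 3.88 to 90.8 ± 29.5 FPKM (SD, n = 3; log2 fold change 1.45, adjusted p = 0.00689, limma). CAV1, the coat protein of caveolae and the most abundant gene of the list, fell from 291 ± 16.9 to 137 ± 34.7 FPKM (SD, n = 3; log2 fold change -1.11, adjusted p = 0.00828, limma). NPC2 and CAV1 lost the call in each fit that left out 1 library other than EWSR1::FLI1 low replicate 1, with an adjusted p (limma) up to 0.0403 and 0.0481. Like ABCA13, LIPA and MGLL, they also lost it with no filter on low values, and MGLL after quantile normalization.

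Of 14 genes of particle assembly and plasma remodelling, 10 were tested and none was called by limma. An unadjusted p under 0.05 was found for 2, beside 34.3% of all tested genes, limma-voom on recovered reads called 1, P4HB, and the median log2 fold change was 0.28 (0.34 and 0.17 with median-ratio and quantile scaling). P4HB, a subunit of the microsomal triglyceride transfer complex and the most abundant of the list, was at 103, 104 and 122.8 FPKM in untreated cells and at 141, 236 and 209 FPKM in doxycycline-treated cells (log2 fold change 0.80, adjusted p = 0.0349, limma).

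**Figure D3:**
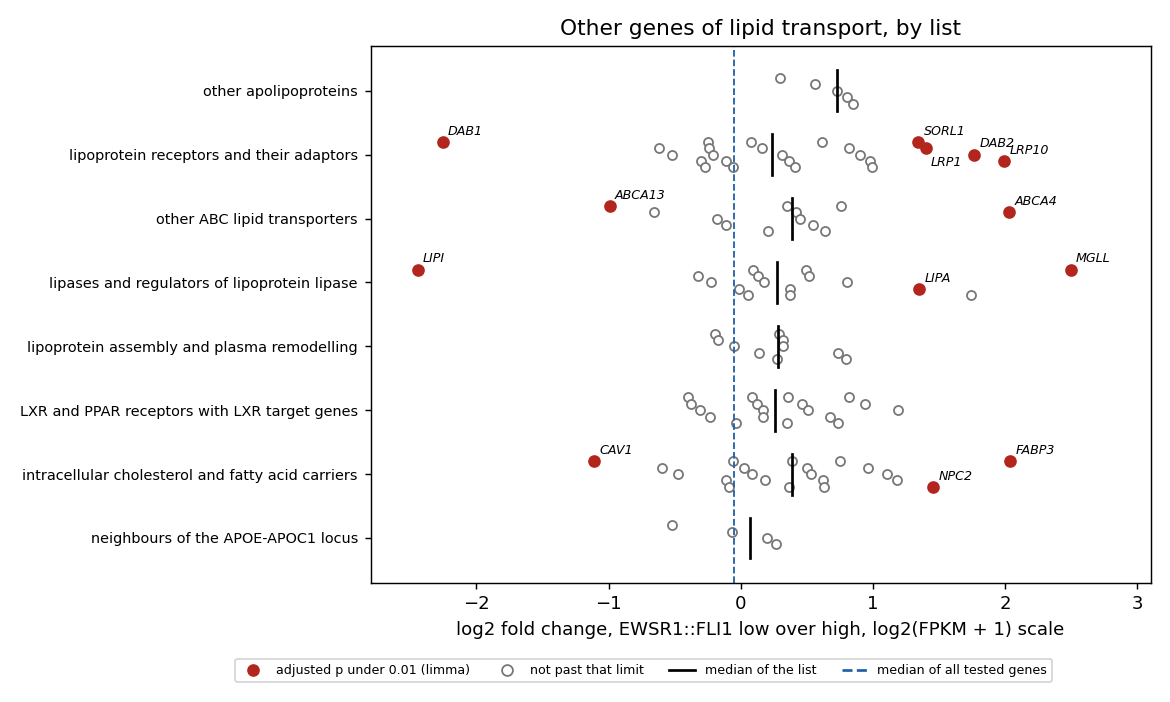
Log2 fold change (EWSR1::FLI1 low over EWSR1::FLI1 high, log2(FPKM + 1) scale) of each tested gene of the 8 lists outside the 10 members, with genes past an adjusted p of 0.01 (limma) filled and named, the median of each list as a black bar and that of all tested genes (-0.05) as a dashed line. Each list holds at most 4 genes called higher and 1 called lower, and DAB1, ABCA13, LIPI and CAV1 are those called lower.

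FPKM is corrected for length, so levels of the 10 genes can be ordered within a group. In EWSR1::FLI1 high cells CLUL1 was highest (42.7 FPKM), followed by CLU (16.1) and APOE (5.31), each separate from the next in all libraries, except that APOE and LPL (4.23) overlapped. The remaining members lay between 1.75 FPKM for APOC1 and 0.263 FPKM for APOL1, and among them only APOB and APOD were neighbours with separate ranges. In EWSR1::FLI1 low cells CLU was highest (60.4 FPKM), and APOE (47.8) overlapped with it but was below it in each of the 3 libraries. LPL (31.0) followed, separate from APOE above and from ABCA1 (7.62) below. CLUL1 held position 6 (2.44 FPKM), where it could not be separated from APOC1 (3.06) or ABCG1 (2.29).

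The summed expression of the 10 genes was 62.8, 69.3 and 85.8 FPKM in untreated cells and 150, 187 and 138 FPKM in doxycycline-treated cells. Without CLUL1, the sums were 28.1 to 32.3 FPKM and 136 to 186 FPKM. CLUL1 made up 52.9% to 62.4% of the sum in EWSR1::FLI1 high libraries and 0.554% to 2.85% in EWSR1::FLI1 low libraries. In EWSR1::FLI1 low libraries, CLU made up 34.8% to 42.3%, APOE 28.8% to 31.9% and LPL 16.0% to 26.6%. The deepest library, EWSR1::FLI1 low replicate 3, had the lowest value of its group for 6 of the 10 genes, while EWSR1::FLI1 low replicate 2 had the highest for 6, and replicate 2 was also the EWSR1::FLI1 low library with the most FLI1 (4.29 FPKM).

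**Figure D4:**
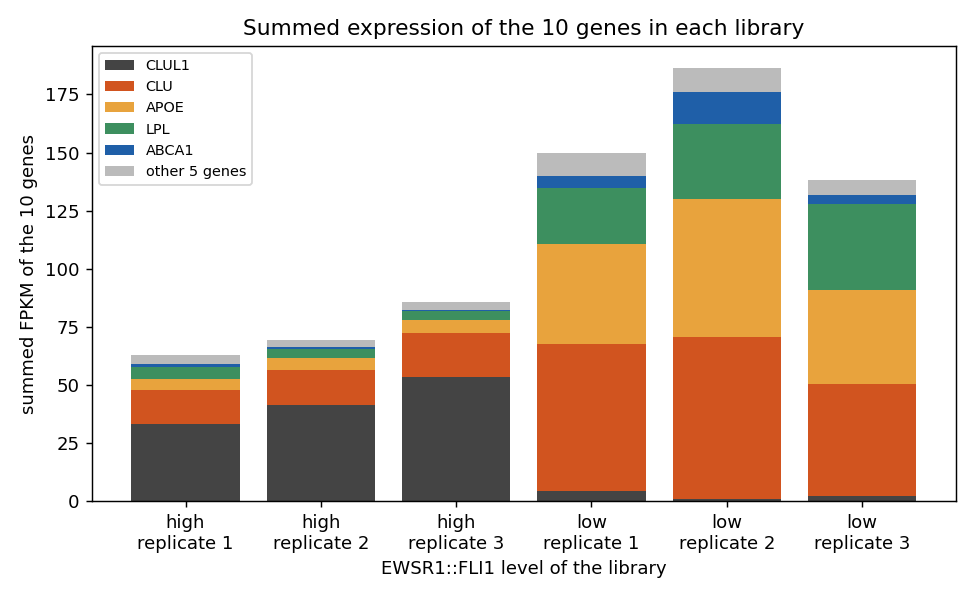
Summed FPKM of the 10 genes in each library, from 0, divided into CLUL1, CLU, APOE, LPL, ABCA1 and the other 5 genes. CLUL1 is the largest share in the EWSR1::FLI1 high libraries (52.9% to 62.4%), and CLU, APOE and LPL hold most of the sum in the EWSR1::FLI1 low libraries.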

How the data were processed

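Total RNA was depleted of ribosomal RNA, and libraries were made with the ScriptSeq v2 kit and sequenced as paired ends. Per the labels, the submitters' processing notes name STAR 2.5.0b, Cufflinks 2.2.1, DESeq2 1.6.3 and bedtools 2.17.0 with GRCh37. What the authors deposited is 1 FPKM value for each symbol in each library and, in a second table, a mean signal per gene, the mean normalized count over the 6 libraries. The rest of that table holds the authors' own comparison (log2 fold change, its error, p-values) and was not used.

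Multiplied by the ratio of that mean to the mean FPKM of the gene, 100% of the FPKM values above 0 became whole multiples, within 0.1 reads, of the value of 1 read, which gave the reads per gene and size factors from 0.829 to 1.67. The floor of detection was taken as 3 reads, and intervals and floors cover counting error only. No replicate pair agreed within sampling noise (chi-square per degree of freedom 4.25 to 31.5).

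Genes with a mean of at least 0.5 FPKM were tested with limma 3.58.1 (R 4.3.3; eBayes with trend) on log2(FPKM + 1), with Benjamini-Hochberg adjustment over the 15504 genes and a limit of 0.01. The limma steps were tested on simulated reads first. Samples were grouped by their titles. The members and lists were chosen with earlier results of these data known. Named are the 10 members, list genes called (at most 6 a list), the most abundant gene of each list, FLI1, EWSR1 and the 3 genes most alike. Alternatives were a pseudocount of 0.1, no filter, a mean of at least 1 FPKM, median-ratio and quantile scaling, eBayes without trend, a replicate block, each library left out, and limma-voom on recovered reads. Gene positions are from GENCODE v44 lifted to GRCh37. Other steps used Python 3.11.15, pandas 2.3.3, scipy 1.17.1 and matplotlib 3.10.9. Results of some list genes are not reported here.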

Additional observations from a re-analysis of the deposited data

How the results depend on the processing

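Of the 9 tested members, 8 were higher and CLUL1 lower in each of the 14 alternatives, except that APOD was not tested at a mean of at least 1 FPKM, and of 18 other genes followed (the called list genes, FLI1, EWSR1 and markers) none changed direction. Of the 14 alternatives, 7 left the side of the limit unchanged for all 18. Genes called higher and lower, 700 and 522 as reported, were 456 and 297 with no filter on low values, where more genes were tested, and 1239 and 1142 with limma-voom on recovered reads. Under median-ratio scaling 994 genes were called higher and 813 lower, and after quantile normalization 992 higher and 1000 lower. With no filter, the calls were 0 lower for the other ABC lipid transporters, 0 higher for the lipases and 1 higher and 0 lower for the intracellular carriers. With median-ratio scaling, they were 1 higher for assembly and remodelling, 1 higher for the LXR list and 4 higher for the carriers. With quantile normalization, they were 2 lower for the ABC transporters and 1 higher for assembly and remodelling. With limma-voom, they were 4 higher for the lipases, 1 for assembly and remodelling, 2 for the LXR list and 4 for the carriers. The cause was not tested.

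Leaving out 1 library at a time gave 287 to 1452 genes called higher and 156 to 726 called lower, both highest without EWSR1::FLI1 low replicate 1. Called higher were then 0 to 1 of the other apolipoproteins, 2 to 6 receptors and adaptors, 1 to 2 ABC transporters, 0 to 4 lipases, 0 to 1 assembly genes, 0 to 3 LXR list genes and 1 to 5 carriers, and called lower were 0 to 1 of the ABC transporters and 0 to 1 of the carriers.

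Taken across genes after subtracting group means, libraries with the same number had an r of 0.271, 0.0889 and 0.124 (replicates 1, 2 and 3). Libraries with different numbers had an r from -0.289 to 0.189. It was negative for each such pair except EWSR1::FLI1 high replicate 3 with EWSR1::FLI1 low replicate 2. These ranges overlap, and whether the numbers pair the samples was not settled. The main fit did not pair them. With the replicate block, 916 genes were called higher and 786 lower, and 1 gene of the LXR list was called higher. Depth limits APOC1, APOD and APOL1, with 3 to 9 reads in EWSR1::FLI1 high libraries, and ABCG1, with 42, 21 and 6 reads in them.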
